A study of Rattus norvegicus with 5 samples.

Results

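Integrin subunits, cadherins, protocadherins and a set of surface adhesion molecules (Icam1, Icam2, Vcam1, Ncam1, Cd44, Alcam, Mcam and F11r) were followed in primary rat hepatic stellate cells. Members were the array probes whose annotated symbol begins with Itga, Itgb, Cdh or Pcdh, or is 1 of those 8 further symbols, without the endothelial cadherin Cdh5 and the integrin-binding Itgb1bp genes, and with a detection p under 0.01 on at least 1 of 5 arrays. Of 76 annotated probes (75 genes) 24 were detected by that rule, each for a different gene, out of 9737 detected probes among 22523 on the array. The cells came from male Wistar rats of 10 weeks and were hybridised as biotin-labelled RNA to Illumina bead arrays. The calcitriol group (2 arrays) held cells at day 3 after 24 h with calcitriol, or 1,25(OH)2D3 (the hormone made from vitamin D), at 100 nM. The vehicle group (2 arrays) held cells at day 3 given vehicle, and a single array is labelled as cells freshly isolated and not treated. The stated aim was to learn how vitamin D ligands act on the activated stellate cell. The labels do not say that replicate arrays came from separate cultures or animals, so p-values cover the spread among these arrays alone, and that spread may be technical.

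Integrins are receptors built of an alpha and a beta subunit that anchor cells to collagen, fibronectin and laminin, or to counter-receptors on other cells. Cadherins and protocadherins join like to like between neighbouring cells through calcium-dependent contacts. Icam1 and Vcam1 are immunoglobulin-type molecules that hold leukocytes through their integrins, and both are known to be made by activated stellate cells and to be induced by inflammatory cytokines. Cd44 is the main receptor for hyaluronan.

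The array labelled freshly isolated held RNA of a gene that calcitriol induces. Cyp24a1, the enzyme that inactivates calcitriol and that the vitamin D receptor is known to induce, had signals of 509.9 and 590.7 intensity units on the calcitriol arrays, of 105.2 and 84.4 on the vehicle arrays, where it was not detected, and of 381.9 on the array labelled freshly isolated. Over all detected probes the root mean square difference of that array was 0.31 and 0.32 log2 units from the calcitriol arrays and 0.44 from each vehicle array, while it was 0.29 between the calcitriol arrays and 0.31 between the vehicle arrays. These values go against its label, and it is called the array labelled freshly isolated throughout. A fit without it gave the same 4 calls of adhesion genes for calcitriol against vehicle as the fit with it. That outcome was fixed, because a single array adds nothing to the estimated spread. The values in both fits were also normalized and filtered with that array. The fit therefore cannot show whether the calls depend on it. Array medians lay between 110.3 and 121.3 intensity units, and 8316 to 9112 probes were detected on an array. All arrays were on 1 chip, and each group had its own positions there, so that position and group cannot be told apart.

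Of the stellate cell markers, 13 of 14 with a named probe were detected, among them Des, Dcn, Lum, Reln and Col1a1. The exception was Gfap, the filament gene of astrocytes and quiescent rat stellate cells, and Acta2, Lrat and Pdgfrb were not analysed here. Macrophage markers were detected in 15 of 15, 14 of them on all 5 arrays. Summed over the list, their linear normalized level was 103500 and 107000 with calcitriol, 96650 and 104300 with vehicle, and 107900 on the array labelled freshly isolated. Among sinusoidal endothelial markers 10 of 11 were detected, 5 of them on all arrays, and Cdh5 was not. Lymphocyte markers were detected in 6 of 12, with Cd8a, Prf1 and Lck on all 5 arrays, but without Cd3d, Cd3g, Cd79b and Ms4a1. Hepatocyte markers were detected in 3 of 12, with Tf and Ass1 on all 5 arrays, but without Alb and Ttr. Cholangiocyte markers were detected in 3 of 6, Krt7, Krt8 and Spp1, each on all 5 arrays, but without Epcam and Krt19. Mesothelial markers were detected in 2 of 6, Msln and Krt8, each on all 5 arrays, but without Wt1. In bulk RNA, fewer cells of a type and less RNA per cell cannot be told apart.

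Promoters of Vcam1 and Icam1, the leukocyte-binding molecules with higher values under calcitriol, and of Itga4 and Cd44, the genes that fell, are shown to set the letters before these genes side by side. Icam1 missed the threshold, and the called gene Cdh17 is not shown. Each window runs from 250 bases before to 50 bases after the start of the gene in RefSeq (GRCr8), Vcam1 at chr2:206742734-206743033, minus strand, Icam1 at chr8:27829595-27829894, plus strand, Itga4 at chr3:84569765-84570064, plus strand and Cd44 at chr3:109699375-109699674, minus strand. Capitals mark matches to the NF-kB consensus, to its shorter form GGNNNTTCC and to the TATA box (TATAAA), searched on both strands, since Vcam1 and Icam1 are known NF-kB targets.
Vcam1: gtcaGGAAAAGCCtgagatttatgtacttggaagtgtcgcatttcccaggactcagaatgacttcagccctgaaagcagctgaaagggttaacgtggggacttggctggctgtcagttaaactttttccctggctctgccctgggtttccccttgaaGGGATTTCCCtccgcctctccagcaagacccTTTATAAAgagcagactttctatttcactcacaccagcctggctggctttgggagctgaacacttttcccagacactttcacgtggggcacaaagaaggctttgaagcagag
Icam1: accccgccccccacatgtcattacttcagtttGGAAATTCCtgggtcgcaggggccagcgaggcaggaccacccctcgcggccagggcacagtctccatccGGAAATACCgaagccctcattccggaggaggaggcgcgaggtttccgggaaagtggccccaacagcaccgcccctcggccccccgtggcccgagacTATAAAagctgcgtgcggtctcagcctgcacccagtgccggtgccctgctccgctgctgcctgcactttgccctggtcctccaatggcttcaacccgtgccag
Itga4: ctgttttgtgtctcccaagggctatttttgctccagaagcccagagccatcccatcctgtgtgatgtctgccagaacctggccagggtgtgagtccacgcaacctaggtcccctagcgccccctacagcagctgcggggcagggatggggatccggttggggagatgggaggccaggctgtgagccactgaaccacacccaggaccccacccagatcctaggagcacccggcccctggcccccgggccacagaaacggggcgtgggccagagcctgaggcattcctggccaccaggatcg
Cd44: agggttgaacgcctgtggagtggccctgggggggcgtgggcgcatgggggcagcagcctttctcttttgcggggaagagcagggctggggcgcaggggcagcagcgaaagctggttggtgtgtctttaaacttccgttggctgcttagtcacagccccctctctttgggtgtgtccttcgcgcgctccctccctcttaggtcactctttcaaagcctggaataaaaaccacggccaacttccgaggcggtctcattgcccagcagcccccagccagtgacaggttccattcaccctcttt

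In the Vcam1 window the NF-kB consensus matched at GGGATTTCCC, whose first base lies 93 bases before the start and which matched on both strands. The shorter form overlapped it and matched again 246 bases before the start. In the Icam1 window GGAAATTCC matched the shorter form on both strands 218 bases before the start, and a second match lay 149 bases before it. The shorter form stood in 5 of the 17 members with a promoter (Vcam1, Icam1, Itga2, Itga5 and Itgbl1), against 18.3% of promoters. A TATA box lay 60 bases before the Vcam1 start, overlapping a match of the other strand, and 53 bases before the Icam1 start. The Itga4 and Cd44 windows held none of these motifs. Of the 24 members 17 had a promoter in the RefSeq table, and 3 of these (Vcam1, Alcam and Itga5) matched the NF-kB consensus, against 7.51% of 33469 promoters of the same length. Among genes with either form, Vcam1, Icam1 and Itga2 had higher values with calcitriol, and Alcam, Itga5 and Itgbl1 had lower ones. Vcam1 alone of these passed the threshold, and a link of motif and change was not tested. The AP-1 motif TGANTCA matched in F11r alone, against 7.33% of promoters, and the vitamin D response element of DR3 type in 0 of 17, against 0.0986%. TATAAA matched in 4 of the 17, against 14.2%. Such a match describes letters, not a bound factor.

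With calcitriol, 2 of the 24 adhesion genes rose and 2 fell against vehicle at an adjusted p under 0.05. These were Vcam1 and the cadherin gene Cdh17, which rose, and the integrin subunit gene Itga4 and Cd44, which fell. They were 16.7% of the members, where 1.83% of all 9737 probes were called (1.17% higher and 0.657% lower). Cdh17 met the detection rule only through arrays on which it is high, so that this share is a description and supports nothing. In a separate fit to the 7839 probes detected on all 5 arrays, 5 of 16 members were called (Vcam1, Itga4, Cd44, Icam1 and Itga2). Of all probes in that fit 4.15% were called. In the main fit Icam1 and Itga2 did not pass (adjusted p = 0.0910 and 0.0887 by limma). In number, 10 of the 24 had an unadjusted p under 0.05 in limma, where 15.8% of all probes did. The median log2 change of the members was -0.18, against 0.00 for all probes, and the median size of a change was 0.34 against 0.18. The calls rest on 2 arrays per group: when any single cultured array was left out, 0 members passed in limma (with 8 to 11 at unadjusted p below 0.05), and with no filter on dim probes Vcam1 alone did.

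**Figure D1:**
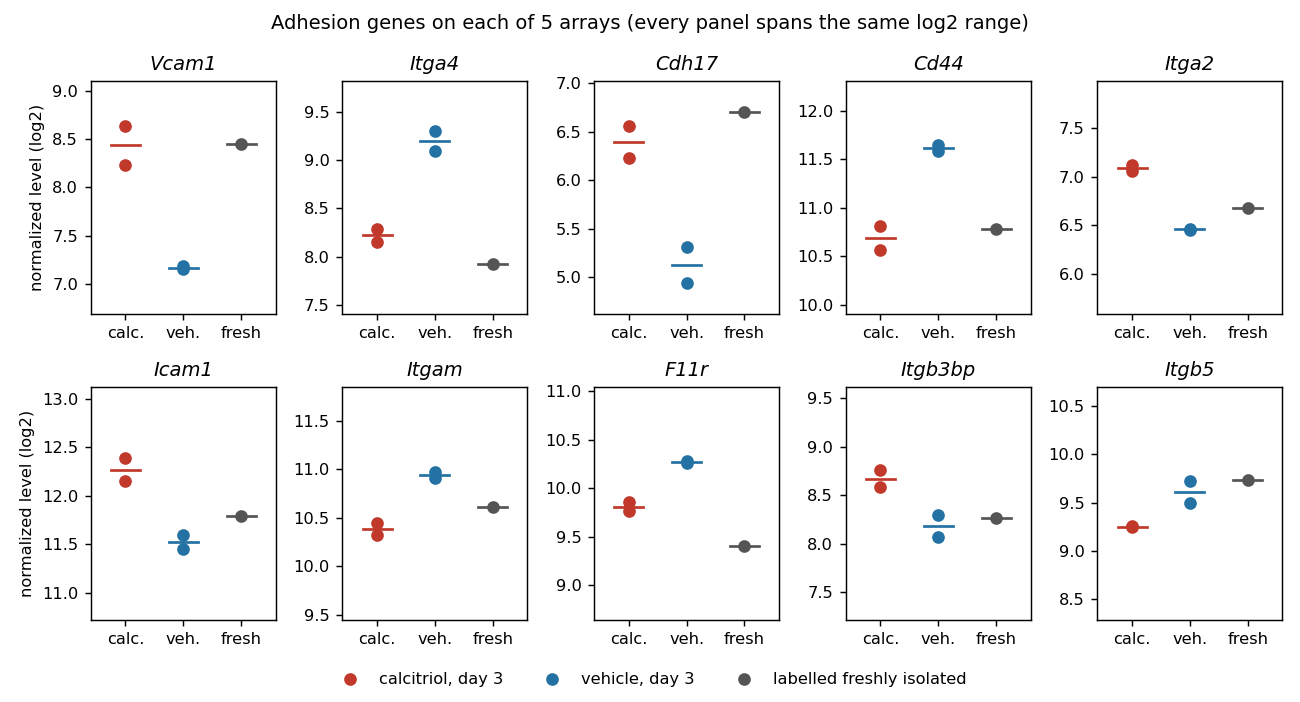
Normalized log2 level (y axis, every panel with the same span) of the 10 adhesion genes with the smallest p for calcitriol against vehicle, on the calcitriol arrays, the vehicle arrays and the array labelled freshly isolated (points are arrays, lines group means). Vcam1 sat at 8.23 and 8.64 with calcitriol and at 7.16 and 7.19 with vehicle, while Itga4 sat at 8.29 and 8.15 with calcitriol and at 9.30 and 9.10 with vehicle.

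Among the 5 detected immunoglobulin-type molecules, Vcam1 had the largest change, and 3 of the 5 had lower values with calcitriol. Vcam1, the counter-receptor of the integrin made of Itga4 and Itgb1, had deposited signals of 366.2 and 503.4 intensity units with calcitriol, 234.0 and 193.9 with vehicle and 477.4 on the array labelled freshly isolated. Its normalized log2 levels were 8.23 and 8.64 with calcitriol, 7.16 and 7.19 with vehicle, and 8.45 on the array labelled freshly isolated. Both calcitriol arrays stood above both vehicle arrays by at least 1.05 log2 units, with the vehicle arrays nearly equal. The rise was 2.40-fold (log2 change 1.26 ± 0.17, moderated SE, n = 2 per group, adjusted p = 0.0343 by limma). Icam1, which binds the leukocyte integrins that contain Itgal or Itgam, had log2 levels of 12.15 and 12.38 with calcitriol, 11.59 and 11.45 with vehicle, and 11.79 on the array labelled freshly isolated. The calcitriol arrays were both higher, with a log2 change of 0.74 ± 0.15 that missed the threshold (adjusted p = 0.0910 by limma). It passed the adjusted threshold with quantile normalization without background correction (adjusted p = 0.00684 by limma), and its adjusted p lay between 0.000671 and 0.461 over all alternatives.

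The remaining immunoglobulin members, F11r, Alcam and Icam2, did not pass, F11r alone of them having an unadjusted p under 0.05. F11r, a junctional adhesion molecule of tight junctions and platelets, had log2 levels of 9.86 and 9.76 with calcitriol, 10.28 and 10.27 with vehicle, and 9.41 on the array labelled freshly isolated. Its 2 groups did not overlap, and the log2 change was -0.46 ± 0.13 (adjusted p = 0.173 by limma). Alcam, a partner of the T cell surface protein CD6 and of itself, had levels of 13.42 and 13.57 with calcitriol, 13.71 and 13.72 with vehicle, and 13.18 on the array labelled freshly isolated. Icam2, a ligand of the Itgal integrin on endothelium and leukocytes, had levels of 9.61 and 9.47 with calcitriol, 9.73 and 9.69 with vehicle, and 9.66 on the array labelled freshly isolated. For both genes the calcitriol arrays were lower by little (log2 changes -0.22 ± 0.13 and -0.17 ± 0.13). Mcam and Ncam1, the neural cell adhesion molecule, were detected on no array.

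Cd44 fell with calcitriol. Its deposited signals were 1799 and 1763 intensity units with calcitriol, 3305 and 2430 with vehicle and 2127 on the array labelled freshly isolated. Its log2 levels were 10.81 and 10.57 with calcitriol, 11.65 and 11.59 with vehicle, and 10.78 on the array labelled freshly isolated. All 3 arrays other than vehicle lay below both vehicle arrays, and the fall with calcitriol was 1.90-fold (log2 change -0.93 ± 0.15, adjusted p = 0.0481 by limma).

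Of the alpha subunits, 6 of 11 were detected, 1 fell, none rose, and 5 of the 6 had a lower value with calcitriol. Itga4, which pairs with Itgb1 or Itgb7 and binds Vcam1 and fibronectin, had signals of 377.9 and 382.5 intensity units with calcitriol, 736.3 and 501.0 with vehicle and 353.5 on the array labelled freshly isolated. Its log2 levels were 8.29 and 8.15 with calcitriol, 9.30 and 9.10 with vehicle, and 7.93 on the array labelled freshly isolated. The groups were 0.81 log2 units apart at their nearest arrays, and the fall was 1.97-fold (log2 change -0.98 ± 0.14, adjusted p = 0.0414 by limma). Itgam, the alpha subunit of the myeloid complement receptor and a macrophage gene, had levels of 10.44 and 10.32 with calcitriol, 10.91 and 10.97 with vehicle, and 10.61 on the array labelled freshly isolated. Its groups did not overlap, and the change of -0.56 ± 0.13 missed the threshold (adjusted p = 0.128 by limma).

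Beside the values of Itga4 and Itgam, 2 genes of leukocytes, 1 of the 15 macrophage markers was called and 3 had an unadjusted p under 0.05. Of all probes 1.83% were called and 15.8% had such an unadjusted p in limma. Ptprc, the pan-leukocyte surface phosphatase, had log2 levels of 8.78 and 8.76 with calcitriol, 10.22 and 9.78 with vehicle, and 8.41 on the array labelled freshly isolated, a fall of 2.35-fold (adjusted p = 0.0380 by limma). The other 2, the protease gene Ctss and the complement gene C1qb, had higher values with calcitriol (log2 changes 0.63 and 0.48, adjusted p = 0.215 and 0.192 by limma). The median log2 change of the macrophage list was -0.01, and its summed level did not separate the groups. The part of leukocyte RNA in the fall of Itga4 was not tested. In the lymphocyte list none of 6 genes passed limma's test (3 at an unadjusted p under 0.05), with a summed level of 945.9 and 815.2 with calcitriol, 721.1 and 660.9 with vehicle, and 836.7 on the array labelled freshly isolated. In the endothelial list none of 10 passed that test (2 at an unadjusted p under 0.05), with a summed level of 7802 and 7990 with calcitriol, 9209 and 8808 with vehicle, and 6442 on the array labelled freshly isolated.

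The alpha subunits Itga1, Itga2, Itga5 and Itga7, which bind collagen, fibronectin or laminin, did not pass. Itga2, a collagen receptor subunit, had levels of 7.06 and 7.12 with calcitriol, 6.45 and 6.47 with vehicle, and 6.68 on the array labelled freshly isolated. It was the 1 alpha subunit with a higher value, its groups did not overlap, and the log2 change of 0.63 ± 0.13 had an adjusted p = 0.0887 by limma. Itga1, the collagen receptor subunit known from stellate cells, had levels of 11.15 and 10.97 with calcitriol, 11.04 and 11.16 with vehicle, and 11.27 on the array labelled freshly isolated, and its groups overlapped. Itga5, of the fibronectin receptor, had levels of 9.66 and 9.82 with calcitriol, 10.00 and 9.95 with vehicle, and 10.19 on the array labelled freshly isolated, with a log2 change of -0.23 ± 0.13. Itga7, a laminin receptor subunit of muscle, was detected on 4 arrays at levels between 5.93 and 6.35, and its groups overlapped. Itga8, Itga10, Itga11, Itgad and Itgal were detected on no array, and Itgav, the alpha-v subunit, had no named probe here.

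None of the beta subunits passed with calcitriol in limma (1 of the 4 detected at an unadjusted p under 0.05), and 3 of the 4 had a lower value. Itgb1, the shared beta subunit of most matrix-binding integrins, had levels of 12.74 and 12.62 with calcitriol, 13.04 and 12.83 with vehicle, and 12.71 on the array labelled freshly isolated. The gap between its groups was 0.09 log2 units, less than the 0.20 between the vehicle arrays, and the log2 change was -0.25 ± 0.14. Itgb5, which pairs with the alpha-v subunit to bind vitronectin, had levels of 9.25 and 9.26 with calcitriol, 9.50 and 9.72 with vehicle, and 9.73 on the array labelled freshly isolated. Its groups did not overlap, with a log2 change of -0.36 ± 0.14 (adjusted p = 0.307 by limma). Itgb7, a partner of Itga4, had levels of 6.24 and 6.03 with calcitriol, 6.56 and 5.87 with vehicle, where it was detected on 1 array, and 6.22 on the array labelled freshly isolated, in overlapping groups. Itgb4, of hemidesmosomes, was detected on 1 calcitriol array and on the array labelled freshly isolated and on neither vehicle array, at levels from 5.60 to 6.35. Itgb6 and Itgb8 were detected on no array, and Itgb2 and Itgb3 had no named probe here.

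**Figure D2:**
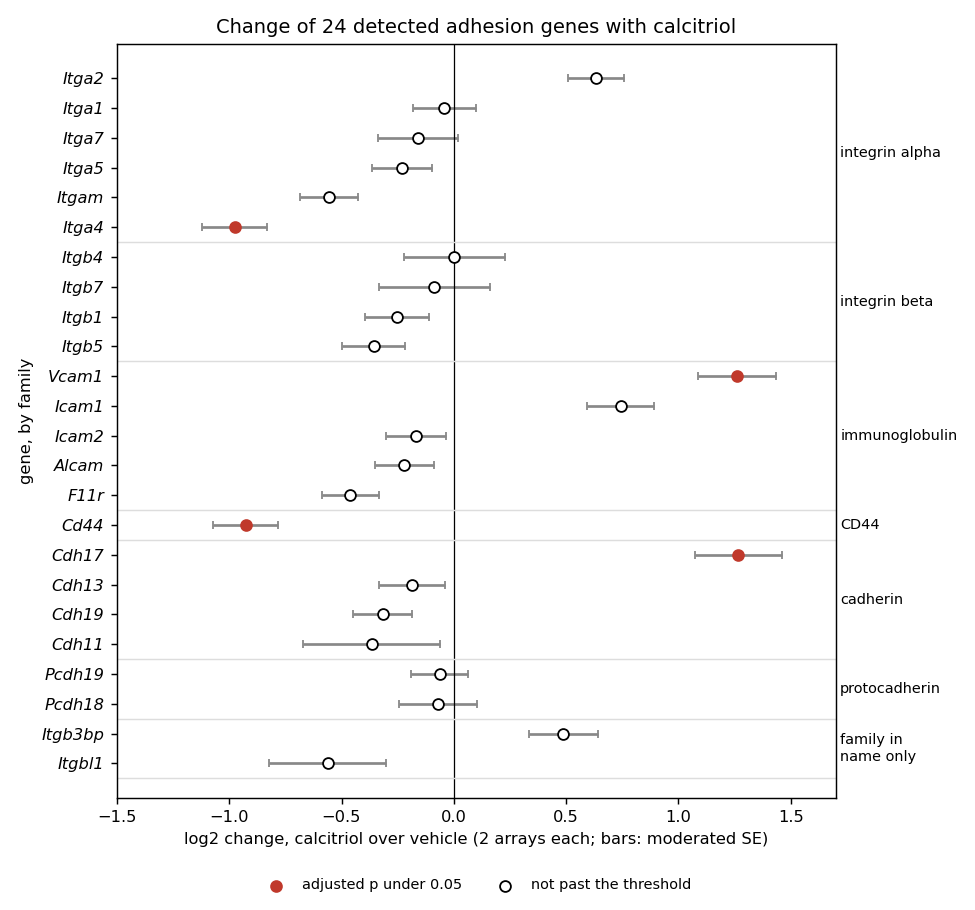
Log2 change of the 24 detected adhesion genes, calcitriol over vehicle (x axis, n = 2 arrays per group, bars are moderated standard errors), ordered by family down the page. Points are fitted values, which for Cdh11, Cdh13, Cdh17 and Itgb4 rest on a group without detection. Filled points passed an adjusted p under 0.05 (Vcam1 and Cdh17 higher, Itga4 and Cd44 lower), and 18 of the 24 points lie below 0.

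Cadherins were mostly not detected, with 4 of 12 named probes above background. Cdh2 had no named probe here, so that nothing can be said of it. Cdh17, known as the liver-intestine cadherin, had signals of 149.0 and 176.3 intensity units with calcitriol, 94.1 and 107.1 with vehicle and 196.7 on the array labelled freshly isolated. It was detected on both calcitriol arrays (detection p 0.00848 and 0.00364), on neither vehicle array (0.423 and 0.152) and on the array labelled freshly isolated (0.00242). Its log2 levels were 6.22 and 6.56 with calcitriol, 4.94 and 5.31 with vehicle, and 6.71 on the array labelled freshly isolated. Since the vehicle level has only an upper bound, its mean level with calcitriol was at least 1.22-fold higher. The bound is set by the lowest level among detected probes of each vehicle array. It compares group means, since the 6.22 of calcitriol 1 lay under the 6.23 that bounds vehicle 2. The fitted values, not this bound, had an adjusted p = 0.0451 by limma. When arrays were scaled to their medians instead, the call was lost (adjusted p = 0.0858 by limma).

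The other cadherins gave dim signals and did not pass. Cdh19, known from Schwann cell precursors, was detected on all arrays at levels of 6.87 and 6.88 with calcitriol, 7.11 and 7.26 with vehicle, and 7.08 on the array labelled freshly isolated. Its groups did not overlap (log2 change -0.32 ± 0.13, adjusted p = 0.329 by limma). Cdh11, the mesenchymal cadherin, was detected on 1 vehicle array only (level 6.50, against 5.62 on the other), with 5.85 and 5.53 on the calcitriol arrays and 5.33 on the array labelled freshly isolated. Cdh13, which is anchored without a cytoplasmic tail, was detected only on the array labelled freshly isolated (level 6.20), with 5.46 and 5.70 on the calcitriol arrays and 5.76 and 5.77 on the vehicle arrays. Cdh1 and Cdh3, the epithelial and placental cadherins, were among the 8 not detected.

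Protocadherins, most of them from clusters expressed in neurons, were detected for 2 of 33 probes. Pcdh19 was detected on every array at 7.59 and 7.51 with calcitriol, 7.62 and 7.60 with vehicle, and 7.53 on the array labelled freshly isolated, the narrowest spread of any member. Pcdh18 was detected on 3 arrays, at levels of 5.83 and 6.07 with calcitriol, 6.18 and 5.86 with vehicle, and 6.24 on the array labelled freshly isolated. At the detection limit Cdh13 was included with a lowest detection p of 0.00970, and Pcdh9 and Pcdha13 were left out with 0.0109. The highest signal among the 52 probes left out was 158.6 intensity units.

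Itgb3bp and Itgbl1 match the naming rule but are not integrin subunits, the first encoding a centromere protein and the second a secreted protein with integrin-like repeats. Itgb3bp had levels of 8.58 and 8.76 with calcitriol, 8.30 and 8.07 with vehicle, and 8.26 on the array labelled freshly isolated (log2 change 0.49 ± 0.15, adjusted p = 0.211 by limma). Itgbl1 had levels of 5.75 and 6.37 with calcitriol, 6.39 and 6.86 with vehicle, and 6.22 on the array labelled freshly isolated. The 2 calcitriol values of Itgbl1 lay farther apart than its groups. A further 4 probes matched by name, for the cadherin-related genes Cdhr1, Cdhr2 and Cdhr5, were detected on no array.

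Across the members, the calcitriol and vehicle arrays did not overlap for 18 of 24 genes, of which 5 were higher and 13 lower with calcitriol. Of all probes 47.7% had groups that did not overlap, 23.3% higher and 24.4% lower. The root mean square difference over the 24 genes was 0.24 log2 units between the calcitriol arrays and 0.31 between the vehicle arrays, and 0.54 to 0.68 between a calcitriol and a vehicle array. Over all detected probes these values were 0.29, 0.31 and 0.38 to 0.47. The 24 genes include Cdh17, kept only through arrays on which it is high. In the plot of all changes, Vcam1, Itga4 and Cd44 stood outside the range of -0.56 to 0.74 that held the 20 genes not called.

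**Figure D3:**
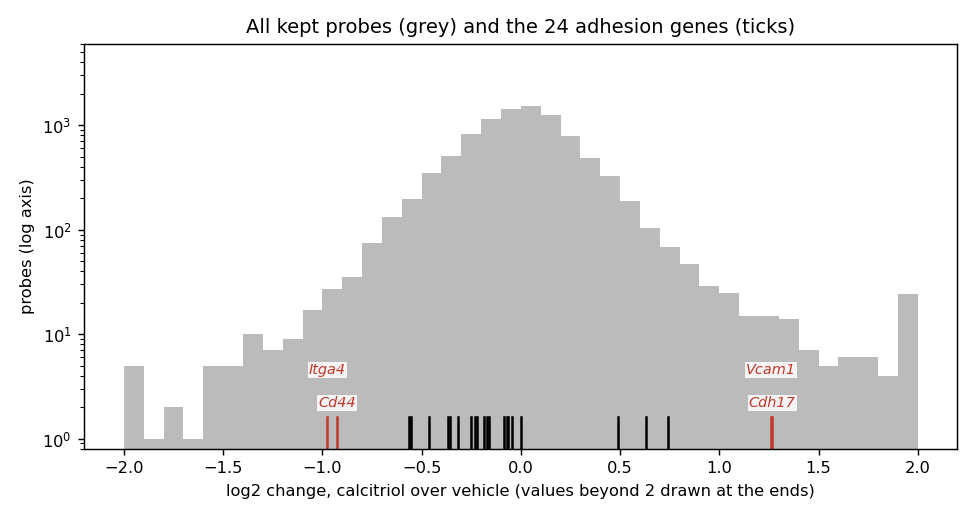
Number of probes (y axis, log scale) by log2 change, calcitriol over vehicle, for the 9737 detected probes (grey bars) with the 24 adhesion genes as ticks at the bottom. Red ticks are the 4 genes past an adjusted p of 0.05, with Itga4 at -0.98, Cd44 at -0.93 and Vcam1 at 1.26, while Cdh17 is drawn at its fitted value although only its lower bound holds, and most black ticks lie left of 0.

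The cellular partners of these receptors were counted from lists of adaptors, catenins, ligands and linkers. Of all probes 1.83% were called with calcitriol and 15.8% had an unadjusted p under 0.05 in limma, so lists this small would hold few calls or none. Of 28 detected adaptors and signalling genes of integrins none passed with calcitriol in limma (6 at an unadjusted p under 0.05), with a median log2 change of -0.12. Of 16 catenins and adherens junction partners 1 fell and none rose (4 at an unadjusted p under 0.05), with a median of -0.04. That gene was Vezt, which encodes vezatin, a membrane protein of adherens junctions. It had levels of 9.92 and 9.93 with calcitriol, 10.80 and 10.78 with vehicle, and 9.99 on the array labelled freshly isolated, so that its groups lay far apart and each pair of replicates nearly coincided (1.82-fold lower, log2 change -0.87 ± 0.13, adjusted p = 0.0376 by limma). Of 18 ligands of integrins and Cd44 and matrix handling genes none passed in limma (2 had an unadjusted p under 0.05), with changes between -0.72 and 0.68 and a median of -0.13. Of 8 sheddases and linkers of Cd44 none passed in limma (3 had an unadjusted p under 0.05), with a median of -0.20. Ezr, the ezrin that ties Cd44 to actin, was picked out after its values were seen. It had levels of 7.96 and 8.15 with calcitriol, 8.68 and 8.78 with vehicle, and 8.18 on the array labelled freshly isolated (log2 change -0.68 ± 0.14, adjusted p = 0.0962 by limma).

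The vehicle arrays were next compared with the single array labelled freshly isolated, a measure of 3 days of culture if that label holds. The comparison shares the vehicle arrays with the one above, so the 2 sets of changes are not independent. The fit assumes that the array without a replicate, whose label is in doubt, varied like the cultured ones. With vehicle 1 of 24 members was higher and 1 lower, 8.33% of them, where 1.53% of all probes were called (0.483% higher and 1.05% lower). The lower one, Cdh17, met the detection rule only through arrays on which it is high. This share too is a description and supports nothing. Itga4, at levels of 9.30 and 9.10 with vehicle and 7.93 on the array labelled freshly isolated, was 2.42-fold higher (log2 change 1.27 ± 0.18, 2 arrays against 1, adjusted p = 0.0394 by limma). Cdh17, not detected with vehicle, was at least 1.52-fold lower, and its fitted values, not this bound, had an adjusted p = 0.0473 by limma. Vcam1, at 7.16 and 7.19 with vehicle and 8.45 on the array labelled freshly isolated, had a log2 change of -1.28 ± 0.21 (adjusted p = 0.0652 by limma). F11r had one of 0.86 ± 0.16 (adjusted p = 0.0785) and Cd44 one of 0.84 ± 0.18 (adjusted p = 0.115), both by limma and both higher with vehicle. The groups did not overlap for 21 of 24 members (11 higher and 10 lower with vehicle), and with 1 array on one side this was so for 73.6% of all probes (36.9% higher and 36.6% lower), while the members' median log2 change was 0.02. No member of the 4 partner lists passed in limma (1, 5, 3 and 1 at unadjusted p below 0.05, in the order given above, where 13.9% of all probes had such a p). When any single cultured array was left out, 0 adhesion genes passed in limma (with 6 to 8 at unadjusted p below 0.05), and with scaling to the array median Itga4 alone did.

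Calcitriol against the array labelled freshly isolated gave no called member in limma, and 0% of all probes were called. At an unadjusted p under 0.05 there were 6 members, where 6.67% of all probes passed. Of these Itgb5 and Itga5 had lower values under calcitriol (log2 changes -0.48 and -0.44). Cdh13, detected only on the array labelled freshly isolated and kept only through it, had a value at least 1.16-fold lower with calcitriol. Its fitted values, not this bound, were tested and did not pass (adjusted p = 0.566 by limma). The other 3, Itga2, Icam1 and F11r, had higher values (log2 changes 0.42, 0.48 and 0.40). The groups did not overlap for 17 members (7 higher and 10 lower with calcitriol), where 68.2% of all probes did not (34% higher and 34.2% lower). Vcam1 and Itgb1 differed by 0.01 and 0.03 log2 units in size, less than their standard errors of 0.21 and 0.17. The same assumption on the array without a replicate underlies these values.

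**Figure D4:**
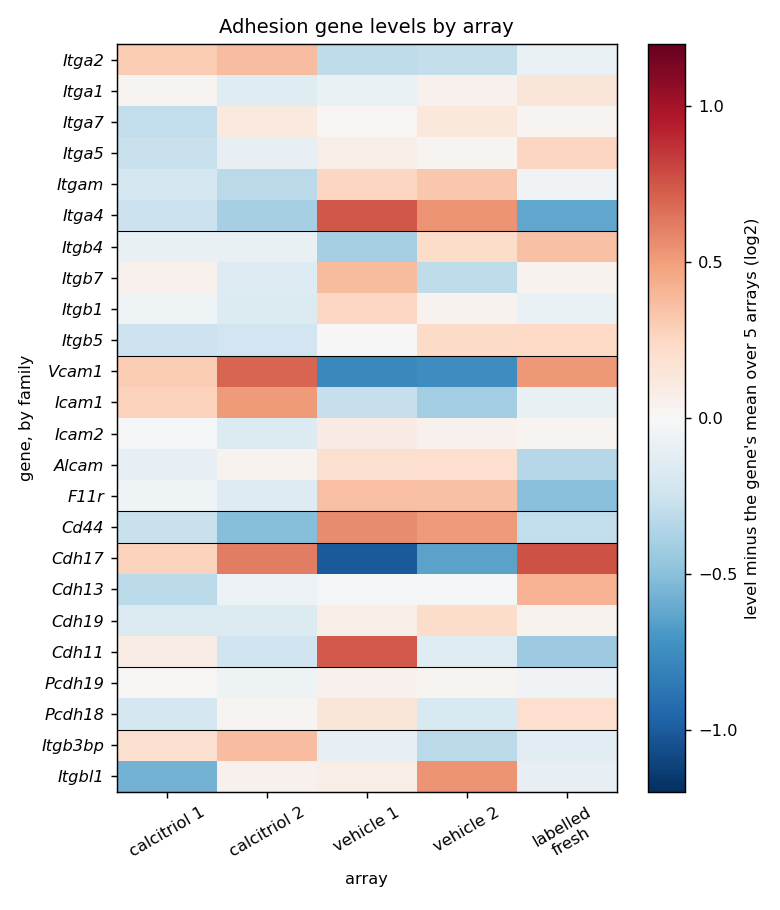
Level of each adhesion gene minus its mean over the 5 arrays (colour, log2 units, red higher), with arrays from left to right as calcitriol, vehicle and the array labelled freshly isolated, and genes by family down the page. Vcam1 and Cdh17 are blue on both vehicle arrays and red on the other 3, while Itga4, F11r and Cd44 are red on both vehicle arrays and blue on the other 3.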

How the data were processed

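Total RNA of 5 samples was labelled and hybridised to Illumina bead arrays, per the labels' protocols. GenomeStudio 2011.1 is named in the submitters' processing notes. Per the file headers, the deposited table gives a mean bead intensity for each probe, with its standard error, bead number and detection p-value. Deposited intensities are linear and unscaled. The series' value table, used as an alternative, holds linear intensities with ranks equal to those of the signals (Spearman rho 1) and medians of 115.7 to 115.9, as quantile normalization without centring gives, a step named in no label. For the members a mean rested on 25 to 59 beads, with a standard error of 2.89% to 8.995% of the signal, and precision is limited by how few arrays there are.

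The neqc function of limma 3.58.1 in R 4.3.3 (offset 16) subtracted a background whose level was inferred from the detection p-values. It normalizes by quantiles and takes log2 and understates changes of dim probes. Probes with a detection p under 0.01 on at least 1 array were kept. All 5 arrays entered 1 fit of group means (lmFit, eBayes, 2 residual degrees of freedom, prior 3.65), with two-sided p-values adjusted by Benjamini-Hochberg over 9737 probes and a threshold of 0.05. The procedure was run on simulated data with independent normal noise, which has the assumptions of the model built in. That run checks the code, and cannot speak to the kind of replicate, chip position or the array of doubtful label. The fold of a gene undetected throughout its dimmer group is a lower bound, while its p-value tests the fitted values.

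The platform annotation names 13793 probes and leaves 8730 unnamed here, and all 24 member symbols were unchanged in RefSeq. Genes with values given were the called members, the 10 with the smallest p with calcitriol, the 5 for vehicle, the leading ones of each family by level, and a fixed set of stellate and leukocyte adhesion genes. Members, lists and motifs were chosen with earlier results of these data known. The members' roles are background knowledge, and partners and cell type markers were counted from fixed lists with the probe of highest mean per gene.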

Additional observations from a re-analysis of the deposited data

How the results depend on the processing

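With calcitriol 4 members were called. The count was 6 with quantile normalization without background correction, with the deposited value table and at an unadjusted p under 0.01 with 1.5-fold, 3 with scaling to the array median, 7 with a variance trend, 1 with no filter on dim probes, 5 among probes detected on all 5 arrays, and 0 in every fit that left out 1 cultured array, with 1 residual degree of freedom. For vehicle against the array labelled freshly isolated 2 were called. That count was 5 without background correction, with the deposited value table and at an unadjusted p with 1.5-fold, 1 with scaling to the array median, 0 with no filter, 4 among probes detected on all 5 arrays, 6 with a variance trend, and 0 in every fit that left out 1 cultured array. Over all probes 149 were called there, and 403 without background correction, 401 with the deposited value table, 547 at an unadjusted p with 1.5-fold, 161 with scaling, 109 with no filter, 282 among probes detected on all 5 arrays, 506 with a variance trend and 0 to 60 without 1 cultured array. Calcitriol against that array gave 0 members under each alternative, where at most 2.03% of all probes were called (198, at an unadjusted p with 1.5-fold). Over all probes the calls with calcitriol were 178, and 489 without background correction, 488 with the deposited value table, 684 with a variance trend, 522 at an unadjusted p with 1.5-fold, 325 among probes detected on all 5 arrays, and 0, 0, 73 and 83 without calcitriol 1, calcitriol 2, vehicle 1 or vehicle 2. Such calls with calcitriol were 223 with scaling to the array median and 138 with no filter on dim probes. Replicates share a number in the labels but nothing says that it pairs them. Differences between replicates correlated at -0.106 between the groups. The replicate block called 2 members (Cdh17 and Vcam1), and 129 of all probes. A crossed pairing, chosen after seeing the data, also called 2 (Itga4 and Vcam1), and 204 of all probes. Of 409 values of single members under alternatives 398 kept their direction. Changes of filter, variance estimate, threshold or replicate block, and a fit to the cultured arrays alone, leave the fitted log2 change as it is. Leaving out a calcitriol array likewise leaves vehicle against the array labelled freshly isolated as it is. In these settings the direction was fixed, so that the count is no measure of robustness. All 11 values that reversed were of genes that did not pass. For calcitriol against vehicle these were, as fitted log2 changes (Cdh11 and Itgb4 were not detected in 1 of the groups, so that theirs are no measured sizes), Itga1 at 0.015 and Itgb4 at -0.058 with scaling to the array median, and the following when a single cultured array was left out: Itga1 (-0.132 to 0.046), Itgb4 (-0.311 to 0.315), Itgb7 (-0.43 to 0.256), Pcdh18 (-0.234 to 0.093), Cdh11 (-0.807 to 0.075) and Itga7 (-0.368 to 0.046). Fewer arrays leave fewer degrees of freedom, and testing more probes can raise adjusted p-values. What caused any of the changes in these counts was not tested. Dim members near background (Cdh11, Cdh13, Itgb4, Pcdh18, Itga7, Itgb7, Itgbl1 and the called gene Cdh17) are limited by signal over background.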

Other observations

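Itgb1bp2, which the naming rule leaves out, encodes melusin, a muscle protein known to bind the tail of the Itgb1 subunit. It was picked out after its values were seen. Its log2 levels were 7.72 and 7.94 with calcitriol, 5.91 and 6.44 with vehicle, and 8.09 on the array labelled freshly isolated, and it was detected on both calcitriol arrays, on 1 of the 2 vehicle arrays and on the array labelled freshly isolated. It was 3.15-fold higher with calcitriol than with vehicle (log2 change 1.65 ± 0.21, adjusted p = 0.0268 by limma), and 3.77-fold lower with vehicle than on the array labelled freshly isolated (adjusted p = 0.0365 by limma). Itgb1bp1, a cytoplasmic regulator of the same subunit, had levels of 10.71 and 10.78 with calcitriol, 10.79 and 10.66 with vehicle, and 10.71 on the array labelled freshly isolated, with overlapping groups (log2 change 0.02 ± 0.13, adjusted p = 0.967 by limma).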
